A study of Mus musculus with 8 samples.

Results

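The genes described here are 39 genes of the skeletal muscle sarcomere and of muscle calcium handling, listed by name and read from the 51789 genes of the count table of whole mouse mammary glands. They comprised 12 thick filament genes, 9 thin filament genes, 13 genes of the Z disc, titin and M band, and 5 genes of calcium handling and creatine kinase. By fiber type, 15 were grouped as fast fiber genes, 8 as slow fiber genes, 14 as shared by both and 2 as developmental myosins. Each gland of a female C57BL/6 mouse had been injected once with small extracellular vesicles (sEVs), and its RNA was sequenced after 6 weeks. sEVCTRL glands (3 libraries) received sEVs prepared from non-conditioned medium. The sEVNORM glands (3 libraries) received sEVs released in normoxia by AT3 cells, which are a metastatic adenocarcinoma line of the mouse mammary gland, and the sEVHYP glands (2 libraries) received sEVs that AT3 cells released in hypoxia. The study asked how sEVHYP change the gland's transcriptome. The labels do not say whether libraries of a group came from separate animals, although the methods count animals, so P values measure the spread between these libraries. The sEVHYP group had only 2 libraries.

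The sarcomere is the contractile unit of striated muscle, in which thick filaments of myosin slide along thin filaments of actin. Calcium released through the ryanodine receptor binds troponin on the thin filament and permits contraction, and the SERCA pump returns it to the sarcoplasmic reticulum. Fast and slow fibers build the same structure from different isoforms: Myh4, Myh1 and Myh2 encode the fast myosin heavy chains of type IIB, IIX and IIA fibers, and Myh7 encodes the slow chain of type I fibers. The mammary gland itself holds no skeletal muscle, but the abdominal glands lie on the muscle of the body wall.

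Muscle RNA differed more between single glands than between the treatments. Levels in CPM, which are counts relative to the TMM-scaled library total, summed over the 39 genes were 1075, 15100 and 3571 in the sEVCTRL glands, 4955, 114.9 and 2653 in the sEVNORM glands, and 7691 and 20130 in the sEVHYP glands. Group means were 6582 ± 7482 (SD, n = 3), 2574 ± 2421 (SD, n = 3) and 13910 ± 8796 (SD, n = 2), and the lowest and highest gland of each group differed widely. Total counts per library were 18194996 to 24622569, and the 39 genes took from 0.0115% of the counts in sEVNORM replicate 2 to 1.96% in sEVHYP replicate 2. sEVNORM replicate 2 stood apart, with 9.36-fold less of these genes than the next lowest gland. It was the lowest gland, alone or tied at 0 with others, for 32 of the 39 genes. sEVCTRL replicate 2 stood apart in its own group and was the highest gland for 15 genes, whereas sEVHYP replicate 2 was the highest for 23. In these bulk libraries, more muscle fibers and more RNA per fiber cannot be told apart.

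Genes of 5 cell types of the gland itself were present in every library and varied far less. Over the 8 libraries, the highest summed CPM was 1.80 times the lowest for both luminal epithelium (6 genes, 335.5 to 603.7) and white adipocytes (6 genes, 7142 to 12860). The same ratio was 1.69 for fibroblasts, 1.92 for peripheral nerve and 2.70 for basal epithelium, against 175 for the 39 muscle genes and 18.7 without sEVNORM replicate 2. No marker of these 5 lists was at 0 in any library. The 5 brown adipocyte genes varied more, by 4.64-fold. Their summed CPM was 14.9, 19.8 and 18.3 with sEVCTRL, 9.25, 21.4 and 20.2 with sEVNORM, and 23.4 and 42.9 with sEVHYP, so both sEVHYP glands were above the other 6 and sEVNORM replicate 2 was next. Ucp1, the uncoupling protein that defines brown adipocytes, had 4, 0 and 0 counts with sEVCTRL, 1, 46 and 7 with sEVNORM, and 7 and 115 with sEVHYP. The lower sEVHYP gland was thus below sEVNORM replicate 2 for this gene. The part of these lists in the muscle values was not tested.

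**Figure D1:**
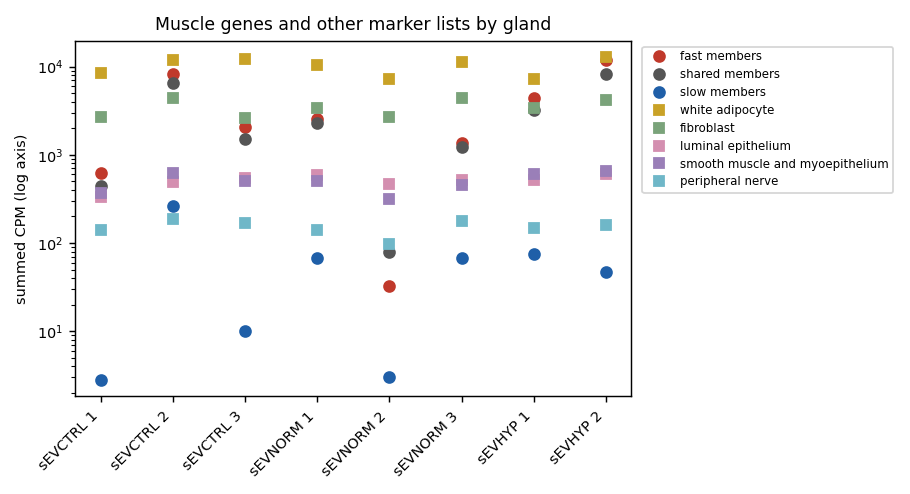
Summed CPM on a log axis for the fast, shared and slow muscle genes (circles) and 5 marker lists of other cell types (squares), with 1 point per gland. White adipocyte markers stay between 7142 and 12860, whereas the fast muscle genes run from 32.5 in sEVNORM replicate 2 to 11920 in sEVHYP replicate 2, and the slow genes are highest in sEVCTRL replicate 2 at 262.4.

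The muscle RNA had the profile of fast fibers in the 7 glands other than sEVNORM replicate 2. In that gland the counts were too few to tell. Myh4 had 44 against 5 for Myh7, and the fast troponin gene Tnnt3 had 13 against 9 for the slow Tnnt1. Per kilobase of exon, the highest median levels over the 7 glands other than sEVNORM replicate 2 were those of Acta1, the skeletal alpha actin, at 436.2 CPM per kilobase, and of the fast troponin genes Tnnt3 at 216.6 and Tnni2 at 200.7. Pvalb, the calcium buffer parvalbumin of fast fibers, followed at 192.6. The slow genes other than Mybpc1 lay near the other end of the order, from 0.883 for Myoz2 to 0.112 for Myh7.

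**Figure D2:**
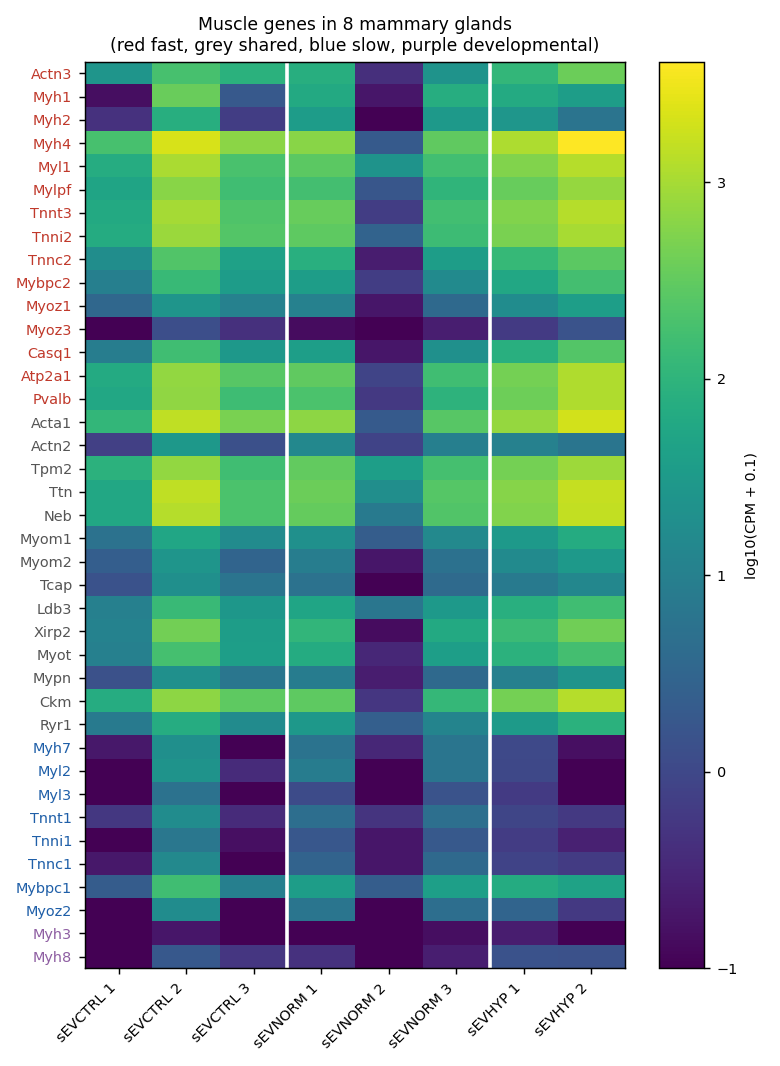
Levels of the 39 genes (rows, grouped as fast, shared, slow and developmental) in the 8 glands (columns), as log10 of CPM plus 0.1. The sEVNORM replicate 2 column is dark for nearly all genes, and the slow rows are brightest in sEVCTRL replicate 2, sEVNORM replicate 1 and sEVNORM replicate 3.

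Among the thick filament genes, Myh4 had the highest mean CPM over the 8 glands (1140, against 448.4 for Myl1), while per kilobase the light chains Mylpf (163.5) and Myl1 (134.0) were above it (105.5) at the median of 7 glands. The fast and developmental heavy chain genes lie side by side on the plus strand of mouse chromosome 11 (GRCm38), from Myh3 at 67078300 to the end of Myh8 at 67308634, and Myh7 lies on the minus strand of chromosome 14, from 54970684 to 54994626. The sequences in front of these starts are shown because the adult chains next to each other differed in which glands they were highest in. Each line gives the 250 bases before the RefSeq start (GRCm38.p6) on the strand of the gene, at chr11:67237562-67237811 for Myh4, chr11:67199852-67200101 for Myh1, chr11:67170777-67171026 for Myh2 and chr14:54994627-54994876 for Myh7, which has another start in the table. Ckm, the muscle creatine kinase, is added from chr7:19410844-19411093 as a gene of both fiber types. Capitals mark matches to CAGCTG (an E-box of the type bound by myogenic factors), CATTCC or its complement GGAATG (the M-CAT element), TATAAA on the strand of the gene, and the MEF2 and CArG elements.
Myh4: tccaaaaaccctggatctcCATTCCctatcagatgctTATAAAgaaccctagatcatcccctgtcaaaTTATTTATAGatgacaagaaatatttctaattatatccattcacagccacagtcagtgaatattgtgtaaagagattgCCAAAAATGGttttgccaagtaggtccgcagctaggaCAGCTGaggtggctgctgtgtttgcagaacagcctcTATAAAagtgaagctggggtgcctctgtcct
Myh1: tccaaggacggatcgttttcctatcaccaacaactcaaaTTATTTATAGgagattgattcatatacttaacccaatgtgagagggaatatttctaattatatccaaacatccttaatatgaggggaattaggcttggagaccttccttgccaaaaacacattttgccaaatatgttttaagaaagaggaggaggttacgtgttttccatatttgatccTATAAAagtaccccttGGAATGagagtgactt
Myh2: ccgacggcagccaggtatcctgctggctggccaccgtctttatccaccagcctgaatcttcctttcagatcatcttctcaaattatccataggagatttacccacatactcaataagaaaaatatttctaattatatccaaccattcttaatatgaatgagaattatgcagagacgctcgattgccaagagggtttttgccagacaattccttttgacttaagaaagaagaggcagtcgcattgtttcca
Myh7: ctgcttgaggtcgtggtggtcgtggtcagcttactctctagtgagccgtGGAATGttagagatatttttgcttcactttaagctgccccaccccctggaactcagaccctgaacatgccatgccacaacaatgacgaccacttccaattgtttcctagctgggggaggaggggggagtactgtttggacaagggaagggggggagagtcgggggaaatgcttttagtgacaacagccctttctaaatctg
Ckm: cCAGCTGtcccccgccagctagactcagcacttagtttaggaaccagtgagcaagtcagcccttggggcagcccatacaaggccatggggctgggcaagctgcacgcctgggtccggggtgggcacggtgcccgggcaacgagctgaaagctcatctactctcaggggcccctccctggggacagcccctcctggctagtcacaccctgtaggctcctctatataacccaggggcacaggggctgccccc
All searches used both strands except for TATAAA, which a MEF2 match can overlap. Myh4 held all 5 elements, Myh1 held CATTCC, MEF2 and TATAAA, Myh7 held CATTCC, Ckm held CAGCTG, and the Myh2 window held none of them. The window of the other Myh7 start held none either. Sequence just after the Myh4 and Myh1 starts was not found in the GENCODE transcripts of these genes, so the matches depend on the RefSeq starts used. RefSeq promoters were found for 30 of the 39 genes (35 promoters). Actn3, Tnnt3, Tnni2, Neb, Myoz1, Myoz3, Myom2, Tcap and Myot had no entry. CAGCTG was in 37.1% of the 35 windows and in 13.0% of all 32851 windows, CATTCC in 25.7% and 12.6%, the MEF2 element in 20.0% and 1.69%, the CArG element in 17.1% and 1.47%, and TATAAA in 14.3% and 7.59%. A match is a description of the letters in these windows, and an absent match says nothing about binding elsewhere.

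Myh4 was at 183.7, 2126 and 635.0 CPM in the sEVCTRL glands, at 623.7, 1.95 and 308.8 CPM in the sEVNORM glands, and at 1132 and 4106 CPM in the sEVHYP glands. Both sEVHYP glands were above every sEVNORM gland, but sEVCTRL replicate 2 lay between them. The fitted log2 fold change of sEVHYP over sEVNORM was 3.07 (SE 1.55), and that over sEVCTRL was 1.42 (SE 1.5). In edgeR's quasi-likelihood test, the adjusted P was 0.9998 for each of the 38 tested muscle genes between sEVHYP and sEVNORM and between sEVNORM and sEVCTRL, and 0.9999 between sEVHYP and sEVCTRL, so the fold changes are given with their SE.

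Myh1, the IIX chain, ordered the glands in another way. Its CPM values were 0.0508, 364.5 and 1.86 with sEVCTRL, 63.2, 0.0887 and 75.8 with sEVNORM, and 65.8 and 37.1 with sEVHYP. One sEVCTRL gland was thus above all others while its group mates held 1 and 34 counts, and the sEVNORM and sEVHYP glands overlapped (log2 fold change 0.15, SE 2.18). The sign of that value turned without sEVNORM replicate 2 (-0.43) and without sEVHYP replicate 1 (-0.32).

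Myh2, the IIA chain, was at 0.356, 76.4 and 0.602 CPM with sEVCTRL, at 35.8, 0 and 31.6 CPM with sEVNORM, and at 26.8 and 5.94 CPM with sEVHYP. The log2 fold change of sEVHYP over sEVNORM was -0.45 (SE 2.01), and it was 0.06 without sEVNORM replicate 1 and 0.24 without sEVHYP replicate 2. Myh7, the slow chain, was at 0.102, 20.0 and 0 CPM with sEVCTRL, at 5.67, 0.222 and 6.06 CPM with sEVNORM, and at 0.962 and 0.0535 CPM with sEVHYP. The gland with the most Myh4 thus held 1 count of Myh7. The log2 fold change of Myh7 was -2.92 against sEVNORM (SE 2.25) and -3.67 against sEVCTRL (SE 2.29), and the latter was 3.18 without sEVCTRL replicate 2.

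As shares of the counts of the 4 adult heavy chain genes, Myh4 held 99.7%, 82.2% and 99.6% in the sEVCTRL glands, 85.6%, 86.3% and 73.1% in the sEVNORM glands, and 92.4% and 99.0% in the sEVHYP glands. Myh1 held 14.1% in sEVCTRL replicate 2 (95% Wilson interval 13.8% to 14.4%) and 18% in sEVNORM replicate 3 (17.2% to 18.8%), against 0.894% in sEVHYP replicate 2 (0.830% to 0.963%) and 0.0276% in sEVCTRL replicate 1 (0.00487% to 0.156%). These intervals cover counting error only. The Myh7 share was highest at 9.80% in sEVNORM replicate 2, where it rested on 5 of 51 counts (4.26% to 21%). Outside that gland it ran from 0 of 11649 counts in sEVCTRL replicate 3, which allows up to 0.0258%, and 0.00129% in sEVHYP replicate 2, to 1.43% in sEVNORM replicate 3. The Myh4 share of sEVCTRL replicate 2 was thus nearer to those of sEVNORM replicates 1 and 3 than to those of its own group. Stretches of 50 bases shared with other heavy chain genes made up 25.4% of Myh1, 22.9% of Myh2 and 18.9% of Myh4, so reads there could have been split between them.

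**Figure D3:**
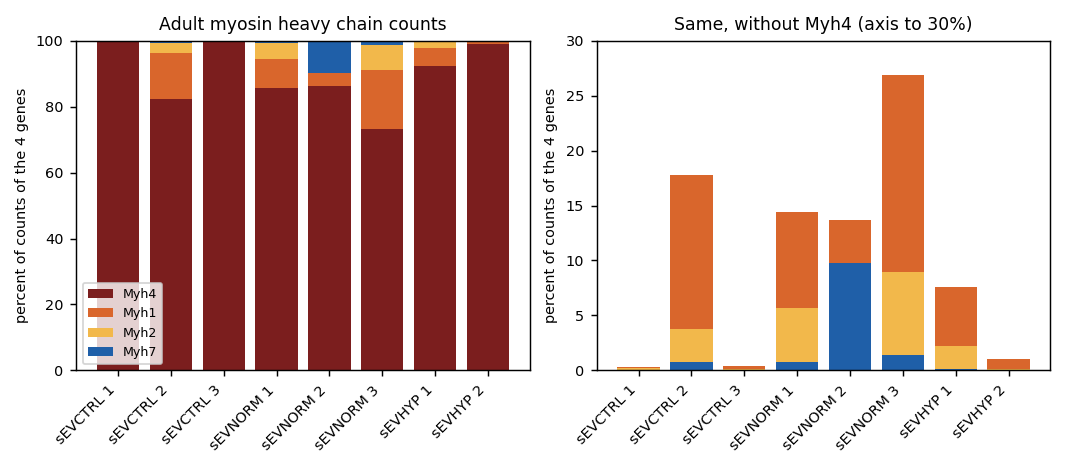
Shares of the counts of Myh4, Myh1, Myh2 and Myh7 in each gland, in percent, with all 4 genes on the left and without Myh4 on an axis to 30% on the right. The non-Myh4 part is widest in sEVNORM replicate 3, where Myh1 held 18%, and close to 0 in sEVCTRL replicates 1 and 3 and sEVHYP replicate 2. sEVNORM replicate 2 rests on 51 counts.

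The fast light chains tracked Myh4. Myl1, the fast essential light chain, was at 70.5, 1067 and 190.6 CPM with sEVCTRL, at 277.8, 22.9 and 167.5 CPM with sEVNORM, and at 545.2 and 1246 CPM with sEVHYP (log2 fold change over sEVNORM 2.52, SE 1.12). Mylpf, the fast regulatory light chain, was at 49.4, 626.9 and 156.0 CPM, at 173.7, 1.64 and 105.5 CPM, and at 346.2 and 767.7 CPM in the same order (2.57, SE 1.36). In both cases the sEVHYP glands lay above all sEVNORM glands, and sEVCTRL replicate 2 lay between the sEVHYP glands. A pseudogene, Mylf-ps, shares 11.7% of the 50-base stretches of Myl1, and Myl1 kept 22.9 CPM in sEVNORM replicate 2, where Mylpf had 1.64.

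The slow light chains had few counts. Myl2, the slow regulatory chain that the cardiac ventricle also uses, had 0, 520 and 5 counts with sEVCTRL, 214, 0 and 127 with sEVNORM, and 20 and 0 with sEVHYP (log2 fold change over sEVNORM -3.35, SE 2.47). Myl3, the slow essential chain, had 0, 119 and 0, then 26, 0 and 30, then 11 and 0 counts (-1.63, SE 2.22). For both genes, sEVCTRL replicate 2 was highest and sEVHYP replicate 2 held no count although its total of muscle counts was the largest.

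Myosin binding protein C stabilises the thick filament. Its fast gene Mybpc2 was at 9.75, 128.3 and 35.5 CPM with sEVCTRL, at 36.4, 0.576 and 16.3 CPM with sEVNORM, and at 58.6 and 170.2 CPM with sEVHYP (log2 fold change over sEVNORM 2.69, SE 1.26). Mybpc1, grouped here with the slow genes, was at 2.13, 156.9 and 9.58 CPM, at 37.2, 2.22 and 39.6 CPM, and at 68.5 and 44.7 CPM (1.11, SE 1.44). Mybpc1 was the only one of the 8 genes grouped as slow with a fitted fold change above 0. Its highest glands were sEVCTRL replicate 2 and both sEVHYP glands, as for most fast genes. Of the developmental chains, the perinatal Myh8 had 0, 39 and 8 counts with sEVCTRL, 9, 0 and 3 with sEVNORM, and 29 and 24 with sEVHYP (2.89, SE 1.34), and the embryonic Myh3 had at most 3 counts in a library and was not tested.

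In the thin filament, the actin gene and the fast troponin genes had their highest level in sEVHYP replicate 2. Acta1 was at 113.1, 1462 and 483.1 CPM with sEVCTRL, at 670.0, 1.91 and 259.2 CPM with sEVNORM, and at 751.3 and 1958 CPM with sEVHYP (log2 fold change over sEVNORM 2.13, SE 1.51). The lower sEVHYP gland was 1.12-fold above the highest sEVNORM gland, the smallest such margin of any gene whose groups did not overlap. Nebulin (Neb), the giant protein along the thin filament, was at 59.1, 1274 and 202.7 CPM, at 330.8, 7.80 and 232.4 CPM, and at 559.3 and 1521 CPM (2.45, SE 1.37). Tpm2, the beta tropomyosin that smooth muscle and myoepithelium use too, was at 92.5, 739.9 and 160.1 CPM, at 321.2, 38.0 and 181.6 CPM, and at 446.8 and 861.9 CPM (1.86, SE 0.93). Tpm2 kept 11.8% of the median of the other 7 glands in sEVNORM replicate 2, against 0.284% for Acta1. The summed level of 8 smooth muscle and myoepithelial markers in that gland was 313.5 CPM, the lowest of a range up to 648.2, and its part in the Tpm2 value was not tested.

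The troponin complex consists of troponin T, which binds tropomyosin, the inhibitory troponin I and the calcium sensor troponin C. Fast troponin T (Tnnt3) was at 64.2, 997.8 and 224.7 CPM with sEVCTRL, at 342.8, 0.576 and 168.0 CPM with sEVNORM, and at 540.1 and 1281 CPM with sEVHYP (log2 fold change over sEVNORM 2.42, SE 1.58). Fast troponin I (Tnni2) was at 69.8, 828.9 and 236.7 CPM, at 300.4, 2.88 and 147.4 CPM, and at 494.4 and 1039 CPM (2.35, SE 1.34). Both fast genes followed the order of Myh4 across the sEVHYP and sEVNORM glands. Fast troponin C (Tnnc2) was at 18, 231.8 and 44.1 CPM, at 82.8, 0.133 and 37 CPM, and at 123.2 and 278.9 CPM (2.33, SE 1.46). Ube2c overlaps 74.0% of the exon bases of Tnnc2 on the opposite strand, and its counts, from 285 in sEVCTRL replicate 2 to 1097 in sEVCTRL replicate 1, did not follow those of Tnnc2.

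The slow troponin genes were highest in other glands than their fast partners. Slow troponin T (Tnnt1) was at 0.457, 17.2 and 0.274 CPM with sEVCTRL, at 4.51, 0.399 and 4.73 CPM with sEVNORM, and at 0.825 and 0.482 CPM with sEVHYP. Its log2 fold change was -2.28 against sEVNORM (SE 1.70) and -3.18 against sEVCTRL (SE 1.74), the latter being 0.83 without sEVCTRL replicate 2. Slow troponin I (Tnni1) had 0, 145 and 1 counts with sEVCTRL, 42, 2 and 39 with sEVNORM, and 12 and 3 with sEVHYP (-1.72, SE 1.93). The counts of Tnnc1, the troponin C of slow and cardiac muscle, were 2, 328 and 0, then 72, 2 and 79, then 16 and 10 (-1.80, SE 2.01). For each of these 3 genes the top glands were sEVCTRL replicate 2 and sEVNORM replicates 1 and 3, and both sEVHYP glands were below those.

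At the Z disc, titin (Ttn), the elastic protein that spans from the Z disc to the M band, was at 57.7, 1463 and 198.8 CPM with sEVCTRL, at 375.9, 19.1 and 253.4 CPM with sEVNORM, and at 600.5 and 1602 CPM with sEVHYP (log2 fold change over sEVNORM 2.35, SE 1.30). Xirp2, an actin-binding protein with Xin repeats, was at 11, 429.2 and 37.6 CPM, at 110.9, 0.0443 and 64.2 CPM, and at 142.3 and 407.2 CPM (2.24, SE 1.71). The alpha-actinin of fast fibers, Actn3, was at 25.8, 184.6 and 88.9 CPM, at 76.9, 0.310 and 23.6 CPM, and at 114.4 and 382.5 CPM (2.88, SE 1.35). Its counterpart Actn2, grouped here as shared, varied more against the other shared genes than any of them, by 7.94-fold over 7 glands. Actn2 was relatively highest in sEVNORM replicate 3 and lowest in sEVHYP replicate 2, as most slow genes were. Its log2 fold change over sEVNORM was 0.05 (SE 1.41). Myotilin (Myot), an actin cross-linker, was at 10.2, 176.4 and 38.3 CPM, at 70.0, 0.222 and 38.0 CPM, and at 91.9 and 169.7 CPM (1.86, SE 1.42).

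The myozenins tether calcineurin to the Z disc. Between sEVHYP and sEVNORM, 3.95% of all genes tested passed an unadjusted P of 0.05 in edgeR. Of the 38 muscle genes tested, 1 did, which was Myoz3. It had 0, 26 and 6 counts with sEVCTRL, 1, 0 and 3 with sEVNORM, and 11 and 27 with sEVHYP. Both sEVHYP glands were above all sEVNORM glands, and sEVCTRL replicate 2 had 1 count fewer than the upper sEVHYP gland. The log2 fold change over sEVNORM was 3.91 (SE 1.42, edgeR adjusted P = 0.9998). The counts pooled over glands were 38 against 4, a depth-scaled ratio of 16.1. For this ratio Myoz3 had an exact 95% interval of 5.79 to 62.0, which covers counting error but not the spread between glands. It no longer passed without sEVNORM replicate 1 (log2 fold change 3.69), sEVNORM replicate 2 (3.37) or sEVHYP replicate 2 (2.96). sEVNORM against sEVCTRL gave -3.00 (SE 1.37). Myoz1, the more abundant fast myozenin, was at 3.35, 25.4 and 10.5 CPM with sEVCTRL, at 10.7, 0.0887 and 3.74 CPM with sEVNORM, and at 17.7 and 38.1 CPM with sEVHYP. It had a log2 fold change of 2.52 over sEVNORM (SE 1.15), and the slow Myoz2, with 0, 385 and 0, then 155, 0 and 98, then 66 and 9 counts, had -1.03 (SE 2.11). The remaining Z disc and M band genes, Myom1, Myom2, Tcap, Ldb3 and Mypn, had both sEVHYP glands above all sEVNORM glands, with mean CPM over all glands from 7.15 for Tcap to 62.3 for Ldb3. Such a separation was found for 28 of the 38 muscle genes and for 12.3% of all genes tested.

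The calcium handling genes were higher in both sEVHYP glands than in every sEVNORM gland. The same held for 28 of the 38 muscle genes tested and for 12.3% of all genes tested. Atp2a1, the SERCA1 pump of fast fibers, was at 66.3, 738.5 and 263.1 CPM with sEVCTRL, at 312.6, 0.798 and 155.3 CPM with sEVNORM, and at 439.9 and 1164 CPM with sEVHYP (log2 fold change over sEVNORM 2.36, SE 1.48). Parvalbumin (Pvalb) was at 57.7, 709.8 and 151.4 CPM, at 200.5, 0.488 and 97.9 CPM, and at 393.8 and 1158 CPM (2.96, SE 1.53). Calsequestrin 1 (Casq1), the calcium store protein of the sarcoplasmic reticulum, was at 8.89, 160.6 and 28.8 CPM, at 37.9, 0.0887 and 20.3 CPM, and at 82.4 and 238.7 CPM (3.04, SE 1.45). These 3 genes had sEVCTRL replicate 2 between the sEVHYP glands.

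Ryr1, the calcium release channel, was at 7.52, 71.7 and 16.9 CPM with sEVCTRL, at 28.8, 2.39 and 11.9 CPM with sEVNORM, and at 32.7 and 87.1 CPM with sEVHYP (log2 fold change over sEVNORM 2.06, SE 1.02). Ckm, which regenerates ATP at the myofibrils, was at 72.1, 671.8 and 293.7 CPM, at 296.1, 0.443 and 116.7 CPM, and at 448.9 and 1262 CPM (2.63, SE 1.52). The full order of the 8 glands for Ckm, from sEVHYP replicate 2 down to sEVNORM replicate 2, was shared by 10 of the 15 fast genes, by 5 of the 14 shared genes (Ckm included) and by 0 of the 8 slow genes.

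Compared pair by pair, the fast gene exceeded its slow partner in nearly every gland, by amounts that differed widely between glands of the same treatment. The ratio of counts per kilobase of Myh4 to Myh7 was 152 in sEVCTRL replicate 2, 157 and 73.0 in sEVNORM replicates 1 and 3, and 1690 in sEVHYP replicate 1. It rested on few Myh7 counts elsewhere: 2590 with 2 counts in sEVCTRL replicate 1 (exact 95% interval 717 to 21400), 12.6 with 5 counts in sEVNORM replicate 2, and 110000 with 1 count in sEVHYP replicate 2 (19700 to 4340000). In sEVCTRL replicate 3, with no Myh7 count, it was at least 5540-fold, taking 3 counts as the floor per library. Which gland had the highest ratio cannot be told from so few Myh7 counts.

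In the troponin pairs the ratio also differed between glands of 1 treatment. Tnnt3 over Tnnt1 was 196, 80.8 and 1140 with sEVCTRL, 106, 2.01 and 49.5 with sEVNORM, and 912 and 3700 with sEVHYP, in counts per kilobase. Tnni2 over Tnni1 was at least 1100 in sEVCTRL replicate 1 and 10400 in sEVCTRL replicate 3, the latter with 1 count of Tnni1 (exact interval 1870 to 411000). It was 301 in sEVCTRL replicate 2, 428 and 192 in sEVNORM replicates 1 and 3, and 2160 and 15600 with sEVHYP, the last with 3 counts of Tnni1 (exact interval 5320 to 75500). Tnnc2 over Tnnc1 was 230 with 2 counts of Tnnc1 in sEVCTRL replicate 1 (exact interval 63.3 to 1910), 20.2 in sEVCTRL replicate 2 and at least 349 in sEVCTRL replicate 3, 37.2 and 12.9 in sEVNORM replicates 1 and 3, and 219 and 678 with sEVHYP. In each troponin pair, both sEVHYP glands had a higher ratio than sEVNORM replicates 1 and 3, and sEVCTRL replicate 2 had the lowest ratio of its group, whereas sEVCTRL replicate 3 was above sEVHYP replicate 1 in value or bound.

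The genes of the myosin binding protein C pair were closer in level than those of the troponin pairs. Mybpc2 over Mybpc1 was 5.73, 1.03 and 4.65 with sEVCTRL, 1.23, 0.326 and 0.516 with sEVNORM, and 1.07 and 4.77 with sEVHYP. Mybpc1, which did not share the gland order of the other slow genes, was thus the higher one per kilobase in 2 sEVNORM glands. Myoz1 over Myoz2 was at least 39.8 in sEVCTRL replicate 1 and at least 116 in sEVCTRL replicate 3. It was 2.62 in sEVCTRL replicate 2, 3.09 and 1.46 in sEVNORM replicates 1 and 3, and 10.6 and 143 with sEVHYP. Mylpf over Myl2 was at least 595, 48.5 and 1050 with sEVCTRL, 37 and 32.3 in sEVNORM replicates 1 and 3, 694 in sEVHYP replicate 1 and at least 8780 in sEVHYP replicate 2. Leaving aside sEVNORM replicate 2, all 8 pairs had their lowest ratio in sEVNORM replicate 3, and 7 had their highest value or lower bound in sEVHYP replicate 2, where no order can be read against glands with only a bound or with 1 to 3 slow counts.

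**Figure D4:**
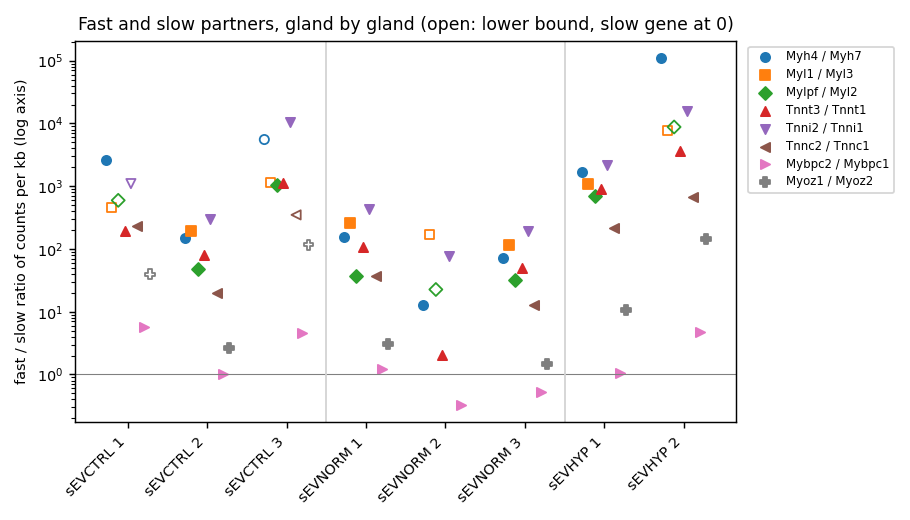
Ratio of fast to slow partner in counts per kilobase, on a log axis, for 8 pairs in each gland, with open symbols for lower bounds where the slow gene had no count. Pairs with both genes at 3 counts or fewer are left out. Mybpc2 over Mybpc1 runs from 0.326 to 5.73, and the other pairs have their highest value or lower bound in sEVHYP replicate 2.

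Averaged over the 8 pairs, the log2 ratio of fast to slow CPM (prior count 2) was 7.34, 4.50 and 8.73 in the sEVCTRL glands, 4.77, 2.35 and 3.70 in the sEVNORM glands, and 7.08 and 10.2 in the sEVHYP glands. Group means were 6.86 ± 2.15 (SD, n = 3), 3.61 ± 1.21 (SD, n = 3) and 8.62 ± 2.18 (SD, n = 2). The sEVHYP and sEVNORM glands did not overlap (difference of means 5.01), and the sEVCTRL glands overlapped both. The difference was 4.38 without sEVNORM replicate 2 and 3.47 without sEVHYP replicate 2, and with summed levels in place of pairs it was 2.73. The difference between sEVHYP and sEVCTRL was 1.76, and it fell to 0.59 without sEVCTRL replicate 2 and 0.22 without sEVHYP replicate 2. The prior pulls values toward 0 where slow counts are few, as in sEVNORM replicate 2 with 68 counts over the 8 slow genes. With a prior count of 0.5 the gland values were 8.52, 4.51 and 9.92 with sEVCTRL. They were 4.80, 3.14 and 3.73 with sEVNORM, and 7.18 and 10.9 with sEVHYP. The difference between sEVHYP and sEVNORM was then 5.16, and that between sEVHYP and sEVCTRL was 1.39.

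Composition varied between glands as well as amount, and whether they are related was not tested. Relative to the mean of the 14 shared genes, the level of a fast gene varied over the 7 glands other than sEVNORM replicate 2 by a median of 2.34-fold, with Tnnc2 at 1.5. That of a shared gene, itself part of that mean, varied by a median of 1.93-fold. The slow genes varied by a median of 48.7-fold, and Mybpc1 among them by 5.98-fold. Counts under 3 were set to 3, so the ranges of Myh7, Myl2, Myl3, Tnni1, Tnnc1 and Myoz2 are lower bounds. Of the fast genes, Myh1 varied by at least 160-fold and Myh2 by 49.8-fold. The 3 highest glands were sEVHYP replicate 2, sEVCTRL replicate 2 and sEVHYP replicate 1 for 13 of 15 fast genes and 13 of 14 shared genes, whereas they were sEVCTRL replicate 2 and sEVNORM replicates 1 and 3 for 7 of 8 slow genes and for Myh2.

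Across genes, sEVHYP and sEVNORM were compared in 1 edgeR quasi-likelihood model of all 8 libraries and 17858 genes. The fitted level was higher with sEVHYP for 30 of the 38 genes tested and lower for 8, with a median log2 fold change of 2.18, against -0.02 over all genes tested. The median was 2.52 for the fast genes (14 of 15 above 0), 2.07 for the shared genes (14 of 14) and -1.76 for the slow genes (7 of 8 below 0). At an unadjusted P under 0.05, 1 of the 38 passed, where 3.95% of all genes tested did. By adjusted P under 0.05, 0 of the 38 passed in edgeR, as did 0.0% of all genes tested, and 0 passed in DESeq2. Both sEVHYP glands were above all sEVNORM glands for 28 of the 38 genes, against 12.3% of all genes tested, and below them for 0, against 10.5%. sEVNORM replicate 2 was the lowest sEVNORM gland for all 28, but the separation rested on the other sEVNORM glands: the lower sEVHYP gland exceeded the highest sEVNORM gland by a median of 1.59-fold, and by 3.55-fold for Myoz3.

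The count of genes past an unadjusted P of 0.05 depended on single libraries. In edgeR, it was 9 without sEVCTRL replicate 1 (4.52% of all genes) and 13 without sEVCTRL replicate 2 (5.57%). It was 7 without sEVNORM replicate 1 (3.26%) and 2 without sEVNORM replicate 2 (2.84%). With no filter on low counts it was 23, where 4.04% of all genes passed, and with only the sEVHYP and sEVNORM libraries fitted it was 6 in edgeR (6.07% of all genes) and 5 in DESeq2 (4.54%). Myoz3, Myl1, Myh8 and Ldb3 were in both of these counts, Tpm2 and Myom1 in that of edgeR, and Tnnt1 in that of DESeq2. The median log2 fold change stayed above 1 whichever single library was left out, and was 1.60 without sEVNORM replicate 2 and 1.41 without sEVHYP replicate 2.

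Against sEVCTRL, the sEVHYP glands had higher fitted levels for 28 of 38 genes, with a median log2 fold change of 0.96 (1.04 for fast, 0.96 for shared and -2.88 for slow genes). In edgeR, 0 of 38 genes passed an unadjusted P of 0.05, against 2.45% of all genes tested (1.39% higher with sEVHYP). In DESeq2 on all libraries or on both groups alone, 0 passed, and 0 did in edgeR without sEVNORM replicate 2 (2.37% of all genes). Without sEVCTRL replicate 1, 1 gene, the slow Tnnt1, passed (2.39% of all genes). No gene had both sEVHYP glands above all sEVCTRL glands (6.7% of all genes tested) or below them (6.08%). Without sEVCTRL replicate 2, all 38 genes were higher with sEVHYP, the slow genes included (median 3.37), the median was 2.65, and 12 passed an unadjusted P of 0.05, where 8.32% of all genes did. The median was 0.46 without sEVCTRL replicate 1 and 0.15 without sEVHYP replicate 2. The sign for the slow genes against sEVCTRL thus depended on 1 gland.

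Between sEVNORM and sEVCTRL, the fitted level of all 38 genes was lower with sEVNORM, with a median log2 fold change of -1.26, but 0 passed an unadjusted P of 0.05 in edgeR (1.62% of all genes tested) and 1, Myoz3, did in DESeq2, and 0 had groups that did not overlap (2.69% higher and 2.17% lower over all genes). Without sEVCTRL replicate 2 the median was 0.31, 26 of the 38 were higher with sEVNORM, and 10 passed an unadjusted P of 0.05 (5.75% of all genes), 7 of them slow genes, and 2 passed without sEVCTRL replicate 1 (3.2%). Without sEVNORM replicate 2, 36 remained lower and the median was -0.68. Both comparisons with sEVHYP share its 2 glands, and both comparisons with sEVCTRL share those 3 glands.

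**Figure D5:**
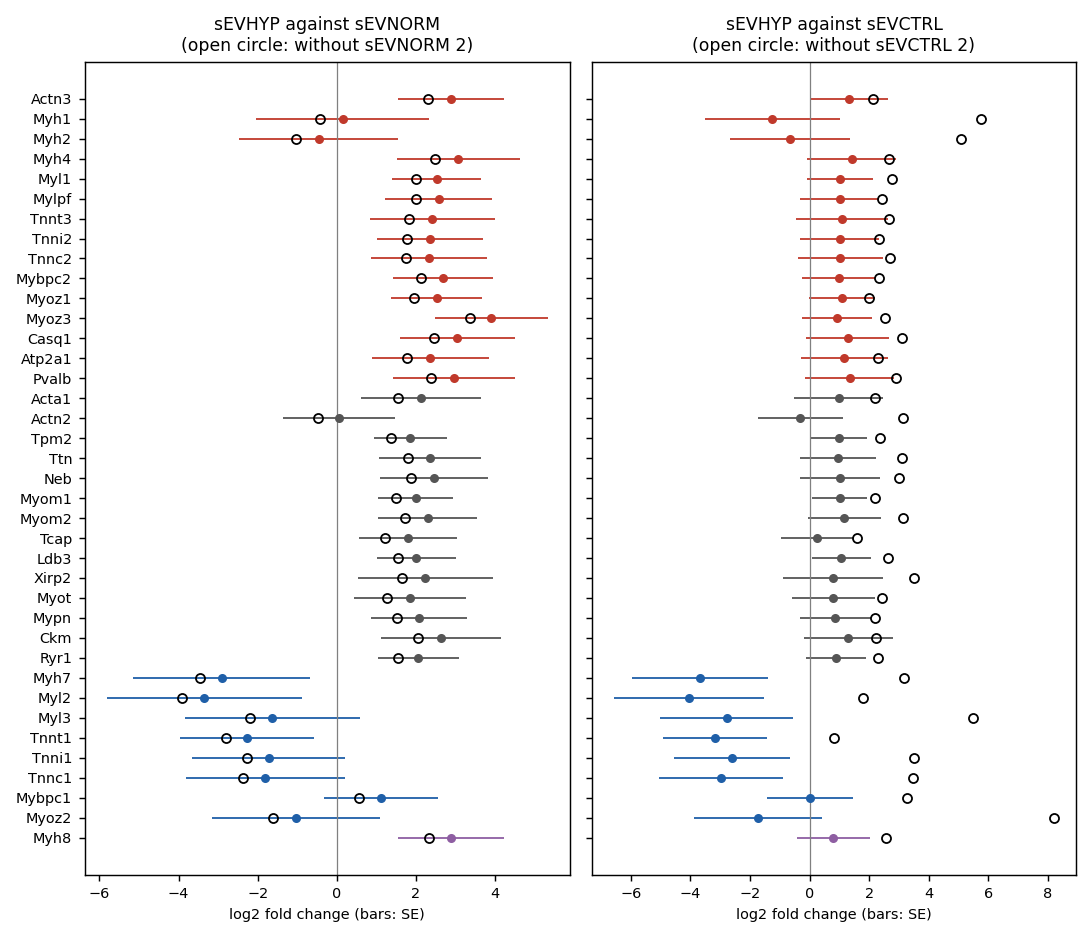
Fitted log2 fold changes of 38 genes with SE bars for sEVHYP against sEVNORM (left) and against sEVCTRL (right), coloured red for fast, grey for shared, blue for slow and purple for developmental genes. Open circles give the value without sEVNORM replicate 2 or sEVCTRL replicate 2: on the left they lie close to the filled points, and on the right all 38 move above 0.

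Other muscle genes, listed by function, were read in the same model. Of 16 genes that couple excitation to calcium release, 14 had higher fitted levels with sEVHYP than with sEVNORM (median log2 fold change 2.26), and 5 rose at an unadjusted P under 0.05, where 2.25% of all genes tested did. They were Cacna1s (2.49, SE 1.00) and Cacng1 (2.76, SE 0.95), subunits of the voltage sensor, its beta subunit gene Cacnb1 (1.51, SE 0.47), and the junctophilin genes Jph1 (2.40, SE 0.90) and Jph2 (2.54, SE 1.04). Cacna1s was at 13.3, 1.2 and 6.34 CPM with sEVNORM and at 20.5 and 57.9 CPM with sEVHYP, and sEVCTRL replicate 2 reached 44.0. None of these had an adjusted P under 0.05. The most abundant genes of this list after Atp2a2 were Trdn, which anchors calsequestrin (2.54, SE 1.53), and the channel subunit Cacna2d1 (1.0, SE 0.60), and neither passed. Atp2a2, the SERCA2 pump of slow muscle and of non-muscle cells, was at 212.0 to 332.1 CPM in all glands and had a log2 fold change of 0.08 (SE 0.20).

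Of 12 genes of muscle energy metabolism, 4 rose at an unadjusted P under 0.05, where 2.25% of all genes tested did. They were the muscle enolase Eno3 (log2 fold change 2.36, SE 0.89), the respiratory chain subunit Cox7a1 (1.56, SE 0.64), the AMP deaminase Ampd1 (2.72, SE 1.14) and the phosphofructokinase Pfkm (1.96, SE 0.86). The edgeR adjusted P of each was 0.9998. Pygm, the muscle glycogen phosphorylase and the most abundant of the 12, was at 93.8, 1.77 and 41 CPM with sEVNORM and at 151.9 and 421.9 CPM with sEVHYP (2.65, SE 1.21), without passing. Myoglobin (Mb), the oxygen store of oxidative fibers, followed neither Ckm nor most fast genes, at 0.254, 50.3 and 0.930 CPM with sEVCTRL, at 24.9, 0.0443 and 15.9 CPM with sEVNORM, and at 20.8 and 5.57 CPM with sEVHYP. In sEVHYP replicate 2, the gland highest for the glycolytic Eno3 at 263.2 CPM, Mb was thus below the level of 4 other glands.

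Of 25 further sarcomere and chaperone genes, 22 were higher in the fit (median log2 fold change 1.78) and 4 rose at an unadjusted P under 0.05, where 2.25% of all genes tested did. They were Tpm1 (2.23, SE 0.80), an alpha tropomyosin, Cavin4 (2.88, SE 1.05), a caveolar protein, Mybph (2.75, SE 1.11), a relative of myosin binding protein C, and Trim54 (2.62, SE 1.14), a titin-associated ubiquitin ligase. The edgeR adjusted P of each was 0.9998. Of the other abundant genes of that list, Tpm3, a tropomyosin of slow fibers and non-muscle cells, had -0.15 (SE 0.20) and Cmya5, a costamere protein, had 2.31 (SE 1.28). Of 8 smooth muscle and myoepithelial genes, all had fold changes above 0 (median 0.48) and 3 rose at that unadjusted P, against the same 2.25% of all genes tested. They were Actg2, an enteric smooth muscle actin (1.14, SE 0.33), Cnn1, a calponin (0.62, SE 0.25), and Des, the muscle intermediate filament that skeletal muscle expresses as well (1.47, SE 0.60). Their edgeR adjusted P was 0.9998 each. The abundant Acta2 (0.48, SE 0.24) and Tagln (0.35, SE 0.22) did not pass. No luminal, basal, white adipocyte, nerve or fibroblast marker passed an unadjusted P of 0.05 in this comparison by edgeR, and their medians were between -0.17 and 0.29. Of 4 brown adipocyte genes tested, all had fold changes above 0 (median 1.06) and 0 passed. Against sEVCTRL, 2 rose at that P, where 1.39% of all genes tested did. These were Ucp1 (5.47, SE 1.75) and Dio2 (2.64, SE 0.75), the deiodinase of brown fat. Ucp1 had 7 and 115 counts in the sEVHYP glands.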

How the data were processed

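RNA from 8 whole mammary glands was sequenced with a sense mRNA kit that selects polyadenylated RNA. Alignment by the authors used STAR and GRCm38, and RSEM 1.2.12 estimated counts per Ensembl release 89 gene (tool names and version per the labels and the study's methods). The deposited values are estimated counts in whole numbers without normalization, and neither their rounding nor the strand setting of the counting is given in the sources used here. Symbols, positions and exon lengths came from GENCODE release M21 for 51596 of 51789 genes, and 0.0389% of the counts lay in genes without a symbol.

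edgeR 4.0.16 (R 4.3.3) was fitted to the 3 groups in one model after TMM scaling and a low-count filter (filterByExpr, at least 10 counts), and differences were tested with its quasi-likelihood F-test, with 17858 genes tested, 5 residual and 4.08 prior degrees of freedom, and a common biological coefficient of variation of 0.297. Benjamini-Hochberg adjustment ran over these genes. The study's own threshold was an unadjusted P of 0.05, and it tested pairs of groups with DESeq2 (1.42.0 here, as an alternative). The procedure was tested on simulated data. A count of 0 allows up to 3 counts. Levels per kilobase used the exon length of each gene.

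The 39 genes and all lists were chosen with earlier results of these data known. All 39 genes are accounted for, and values per gland are given for the most abundant genes of each role, for both genes of each fast and slow pair, for the developmental myosins and for genes with an unadjusted P under 0.05. In the other muscle lists, genes past that P and the 3 most abundant genes are named, except for 1 gene that is not reported here. Mb, Ucp1 and Dio2 were named after their values were seen. Promoter sequences are from RefSeq (GRCm38.p6). The alternatives were DESeq2's size factors, TMM without muscle genes, DESeq2, fits of only the groups compared, other filters, the replicate number as a block and each library left out in turn.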

Additional observations from a re-analysis of the deposited data

How the results depend on the processing

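With 2 or 3 glands per group and muscle RNA that differed 175-fold between glands, the counts of genes past an unadjusted P of 0.05 were unstable, while most directions held. For the number of the muscle genes past that P between sEVHYP and sEVNORM (1 in edgeR), DESeq2 on all libraries gave 3, DESeq2 on both groups alone 5, edgeR on both groups alone 6, and edgeR with no low-count filter 23. Leaving out 1 sEVCTRL or sEVNORM library gave 1 to 13. The share of all genes past that P is not given here for DESeq2 on all libraries or for the replicate block. Between sEVHYP and sEVCTRL (0 in edgeR), no filter gave 3 (2.47% of all genes), and leaving out 1 sEVCTRL or sEVNORM library gave 0 to 12. Between sEVNORM and sEVCTRL (0 in edgeR), both DESeq2 fits and no filter (1.96% of all genes) gave 1, and leaving out 1 sEVCTRL or sEVNORM library gave 0 to 10. Without a sEVHYP library the lone sEVHYP gland is assumed to vary like the other groups. The median log2 fold change of sEVNORM over sEVCTRL ran from -2.18 to 0.31 over these fits, and only without sEVCTRL replicate 2 was it above 0. The mean log2 ratio of fast to slow genes differed by 5.01 between sEVHYP and sEVNORM, and by 2.73 when levels were summed. The cause of these shifts was not tested, apart from the smaller sets of libraries or the larger set of genes that each fit uses by construction.

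The labels state no pairing, and same-numbered libraries did not deviate together in every pair of groups (correlations from -0.416 to 0.369). Deviations from the mean of such small groups are tied to each other, so these correlations cannot decide whether libraries were paired. The number was treated only as a label. With the replicate block, the number of muscle genes past an unadjusted P of 0.05 was again 1, 0 and 0 for sEVHYP against sEVNORM, sEVHYP against sEVCTRL and sEVNORM against sEVCTRL, with median log2 fold changes of 1.59, 0.97 and -0.57. Of single genes against sEVNORM, Myh1 was at -0.60 with the block and from -0.43 to 0.70 with 1 library left out, and Myh2 was from -1.92 to 0.24. Against sEVCTRL, Myh7 ran from -6.82 to 3.18 and Tnnt1 from -3.74 to 0.83, above 0 only without sEVCTRL replicate 2. Of the other single-gene values under the alternatives, 484 kept their direction and, where a P was given, their side of an unadjusted P of 0.05. Another 61 gained a P under it and 3 lost it, all of these Myoz3. Between sEVHYP and sEVNORM, DESeq2 on all libraries gave no P for some genes, with Myh1, Myh2, Myh7 and Tnnt1 among them. A slow gene with 0 to 3 counts in a library gives no usable ratio at this depth beyond a bound or a wide interval.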

Other observations

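Of 13 myogenic factor and satellite cell genes, 6 had enough counts to be tested. Lbx1, a homeobox gene of migrating muscle precursors, had 8, 13 and 5 counts with sEVCTRL, 6, 1 and 7 with sEVNORM, and 78 and 183 with sEVHYP. Both sEVHYP glands were above the other 6, and sEVCTRL replicate 2, high in muscle RNA, had 13. Its log2 fold change was 4.99 over sEVNORM (SE 0.69, edgeR adjusted P = 0.807) and 3.94 over sEVCTRL (SE 0.64, edgeR adjusted P = 0.9999), and both passed an unadjusted P of 0.05. Mef2c, the most abundant gene of the list and one that non-muscle cells also use, ran from 140.4 to 323.9 CPM, highest in sEVNORM replicate 2. Myf6, the myogenic factor of mature fibers, had 15, 284 and 32 counts with sEVCTRL, 96, 0 and 33 with sEVNORM, and 137 and 308 with sEVHYP (log2 fold change of sEVHYP over sEVNORM 2.64, SE 1.33, edgeR adjusted P above 0.05). Both sEVHYP glands were above every sEVNORM gland, and sEVCTRL replicate 2 lay between the sEVHYP glands. Chrna1, a subunit of the muscle acetylcholine receptor, had 3, 32 and 5 counts with sEVCTRL, 2, 2 and 8 with sEVNORM, and 13 and 25 with sEVHYP (2.39, SE 1.04, edgeR adjusted P = 0.9998). Pax7, the satellite cell factor, had 1 count in all 8 libraries together, and Myod1 had at most 11 in any library.

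Heart isoforms were scarce. Nppa, a natriuretic peptide gene of the atria, had 0 counts in all 8 libraries, and Myh6, the cardiac alpha heavy chain, had at most 5. Actc1, the cardiac actin, was at 1.17, 4.74 and 1.48 CPM with sEVCTRL, at 0.885, 0.754 and 1.42 CPM with sEVNORM, and at 3.48 and 5.41 CPM with sEVHYP (2.12, SE 0.60, edgeR adjusted P = 0.9998). Myl4, the atrial light chain (-0.22, SE 0.35), and Ryr2, the cardiac release channel (-0.69, SE 0.49), did not pass. Csrp3 and Ankrd2, named after their values were seen, had the order of the slow genes: sEVCTRL replicate 2 held 240 and 74 counts, sEVNORM replicate 1 held 188 and 59, and sEVHYP replicate 2 held 8 and 2.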
